A study of Mus musculus with 35 samples.

Results

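The genes described here are 10 neuropeptides and markers of inhibitory interneurons, Sst, Npy, Vip, Cck, Pvalb, Crh, Tac2, Cort, Reln and Gad1, in brain tissue of mice with closed head injury. Other neurons also make some of them, as given below for Gad1, Cck and Tac2. They were chosen by name as the neuropeptides and markers that define interneuron classes, and each was matched to the row of the deposited gene table that carries its symbol. The table lists 21203 genes, of which 17131 passed the filter on low counts, and all 10 genes were among them.

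All mice were males of the strain C57BL/6NCrl. Closed head injury is an impact on the intact skull that injures the brain diffusely. Some days after it, the injured mice received an injection into the left hippocampus of PBS, of mesenchymal stromal cells (MSCs), or of MSCs transfected with synthetic mRNA for interleukin-4 (IL-4 MSCs), and were collected 1 or 3 weeks post injury (wpi). The Sham mice had neither injury nor injection. Each injured group had 5 mice with 1 library per mouse, except PBS at 3 wpi with 4, from which the authors had excluded 1 library. The 5 Sham mice form 1 group, in which 2 are from the earlier time and 3 from the later. The MSCs came from 1 vendor lot taken from the same strain. The number in the sample labels that precedes the mouse number is shared by all mice of an injured group, so anything that went with it cannot be told apart from the group. Because Sham lacked both injury and injection, these also cannot be told apart in any comparison with Sham.

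Inhibitory interneurons of the cortex and hippocampus release GABA and fall into classes that are named for the peptides and proteins they make. Parvalbumin and somatostatin cells arise in the medial ganglionic eminence, and Vip, Cck and many reelin cells in the caudal one. The peptides are packed in dense-core vesicles, released at high firing rates and read by G protein-coupled receptors on neighbouring neurons. Transcription of several of them is known to depend on neuronal activity through cyclic AMP and calcium signalling, which act at the cyclic AMP response element (CRE).

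Promoter sequence was taken from RefSeq (GRCm38.p6) for 9 of the 10 genes as the 250 bases before the annotated start. The CRE is TGACGTCA and its shorter core TGACG, which reads CGTCA on the other strand and lies within the full element. Both strands were searched. The full element was found in 1 of the 9 genes, Sst, and in 1.55% of 32851 RefSeq promoter windows. The core was found in 4 of the 9, Sst, Cort, Vip and Cck, and in 17.8% of all windows. Those 4 windows are shown because these were the 4 peptide genes that fell in IL-4 MSCs at 1 wpi. Each is written 5′ to 3′ on the strand of its gene, with the element in capitals, and position -1 is the base just before the start.
Sst promoter: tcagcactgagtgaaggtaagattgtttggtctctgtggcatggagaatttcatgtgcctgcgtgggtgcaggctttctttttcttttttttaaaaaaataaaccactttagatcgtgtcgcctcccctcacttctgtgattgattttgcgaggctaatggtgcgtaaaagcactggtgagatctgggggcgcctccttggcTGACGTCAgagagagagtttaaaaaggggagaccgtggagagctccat
Cort promoter: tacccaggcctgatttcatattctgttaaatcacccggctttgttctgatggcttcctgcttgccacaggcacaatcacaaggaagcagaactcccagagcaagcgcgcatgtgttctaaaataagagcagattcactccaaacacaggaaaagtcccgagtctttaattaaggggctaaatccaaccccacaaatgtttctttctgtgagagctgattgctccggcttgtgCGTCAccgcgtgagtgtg
Vip promoter: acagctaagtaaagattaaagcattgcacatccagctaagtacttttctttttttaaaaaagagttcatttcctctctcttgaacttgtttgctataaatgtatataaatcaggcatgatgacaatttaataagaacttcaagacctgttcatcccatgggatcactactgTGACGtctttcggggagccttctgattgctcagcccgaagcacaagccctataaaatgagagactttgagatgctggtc
Cck promoter: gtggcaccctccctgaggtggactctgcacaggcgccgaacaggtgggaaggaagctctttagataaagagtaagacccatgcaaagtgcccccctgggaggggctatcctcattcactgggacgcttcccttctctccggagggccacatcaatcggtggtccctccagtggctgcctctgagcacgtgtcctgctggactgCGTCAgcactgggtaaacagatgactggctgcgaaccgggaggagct
The Sst window is chr16:23890845-23891094 (minus strand), the Cort window chr4:149126764-149127013 (minus strand), the Vip window chr10:5638968-5639217 (plus strand) and the Cck window chr9:121495695-121495944 (minus strand). The first base of the element lies at -48 in Sst, where the core starts on both strands (at -48 and -45), -18 in Cort, -79 in Vip and -47 in Cck. The windows of Npy, Tac2, Gad1, Pvalb and Reln do not hold these letters. These matches describe the sequence and say nothing of binding in this tissue. The windows shown were picked from the expression result, and no link of the core to the falls was tested. Gad1 and Reln, without the core, were called lower in the same comparison.

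Library totals were between 29838423 and 41554322 estimated counts, and libraries of a group correlated with r of 0.981 to 0.994 over 66 pairs. Levels below are CPM, counts scaled by library size alone, and overlap of groups is judged on these unless stated. Differences are log2 fold changes with their standard error (SE) from an edgeR fit of all 34 libraries. That fit, and log2 CPM, also used the TMM factor of each library, which was 0.968 to 1.04. It was 0.968 to 0.994 in Sham, 0.996 to 1.02 in PBS at 1 wpi and 1.02 to 1.04 in IL-4 MSCs at 1 wpi. The factor thus lowers these 2 groups against Sham. Shares of all genes whose groups did not overlap refer to CPM, and were not computed with the TMM factor. A gene was called at an adjusted p below 0.05 over all genes tested. The labels give the tissue as left cortex, and the protocol describes a block of tissue around the injection site. Markers of cortical pyramidal neurons (14 genes, summed 2102 to 2780 CPM) and pan-neuronal genes (15 genes, 8445 to 9964 CPM) were high in every library, and no list had a gene at 0 throughout. Markers of striatum summed to between 431.8 and 3500 CPM, of thalamus and habenula to between 331.9 and 1305 CPM, and of hypothalamus and amygdala to between 44.1 and 341 CPM. Whether these ranges come from the tissue taken or from expression within it was not tested.

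Compared per transcript length, the 10 genes fell into a stable order. Cck was the most abundant with a median of 642 TPM (the deposited unit that scales by transcript length and library), followed by Sst at 363, Gad1 at 249, Npy at 142 and Pvalb at 78.9 TPM. Each of these was above the next, and Pvalb above Vip, in 34 of 34 libraries. Vip (28.6 TPM), Tac2 (26.4 TPM) and Reln (19.7 TPM) were not separated beyond their spread, since Vip exceeded Tac2 in 22 libraries and Tac2 exceeded Reln in 23. Reln exceeded Cort in all 34. Cort (5.46 TPM) and Crh (4.46 TPM) were the scarcest, with Cort above Crh in 21 libraries, and rested on as few as 24 and 54 estimated counts per library.

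**Figure D1:**
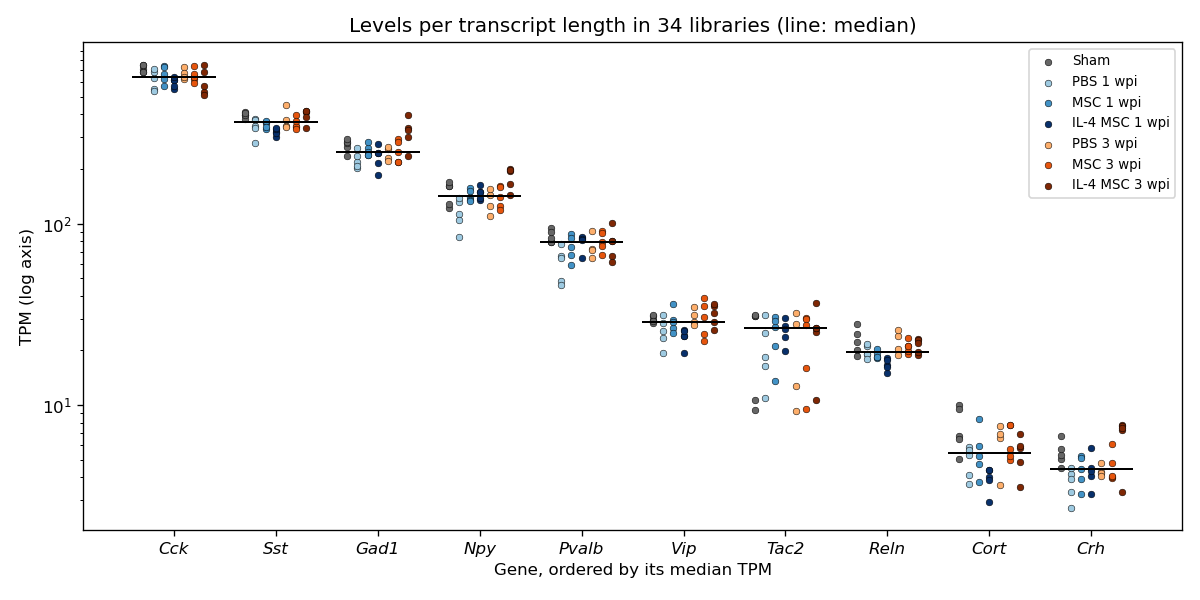
TPM of each gene (log axis) in the 34 libraries, one point per mouse and one colour per group, with the median over all libraries as a line. Cck, Sst, Gad1, Npy and Pvalb form separate steps from 642 to 78.9 TPM, while Vip, Tac2 and Reln overlap, as do Cort and Crh.

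At 1 wpi several of the 10 genes were called lower than in Sham, most of them with PBS or IL-4 MSCs, and none was called higher. In PBS mice 6 of 10 were called lower (Sst, Npy, Pvalb, Crh, Cort and Gad1), against 4.99% of all genes called lower in this comparison. In MSC mice 1 was called, Reln, against 6.86%. In IL-4 MSC mice 6 were called lower (Sst, Vip, Cck, Cort, Reln and Gad1), against 18.4%. The median log2 fold change of the 10 genes was -0.31 for PBS, -0.21 for MSCs and -0.33 for IL-4 MSCs, where the median over all genes tested was -0.0054, -0.0082 and -0.018. Not all moved down: Tac2 differed by 0.089 with MSCs and 0.16 with IL-4 MSCs (SE 0.38 each), and was called higher with IL-4 MSCs against the same-week Sham mice alone (1.30, adjusted p = 0.0365). These 3 comparisons share the Sham mice. In bulk tissue, fewer cells of a class and less RNA per cell cannot be told apart.

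**Figure D2:**
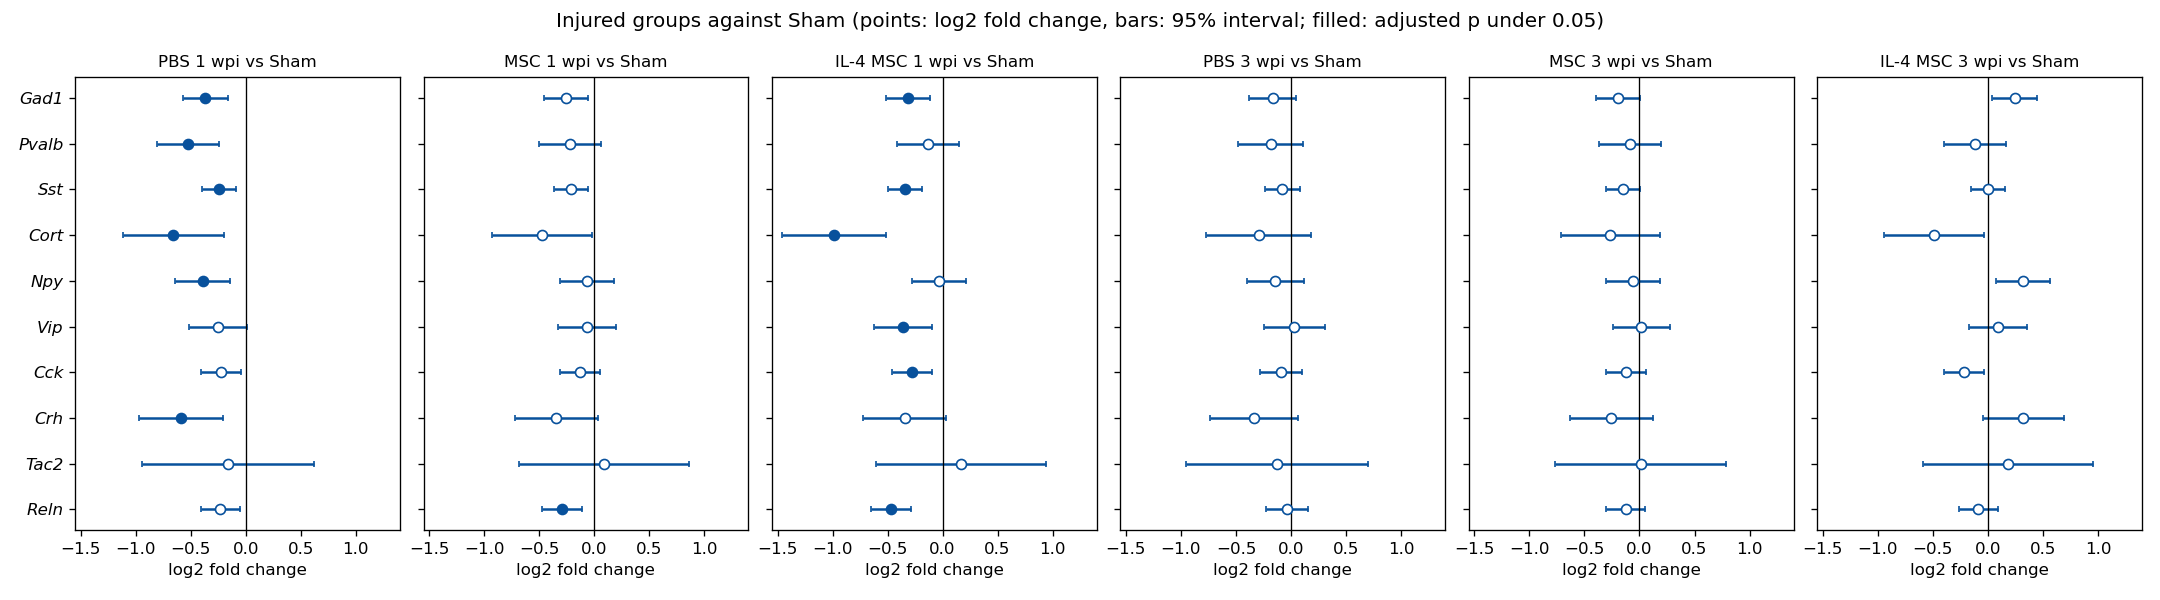
Log2 fold change of each gene against Sham in the 6 injured groups, with 95% intervals; filled points have an adjusted p below 0.05. The filled points lie to the left of 0 in the 3 panels at 1 wpi, with 6 for PBS, 1 for MSCs and 6 for IL-4 MSCs, and there are none at 3 wpi.

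Gad1 (chr2:70553072-70602014, GRCm38) encodes the larger of the GABA-synthesizing enzymes and is made by nearly all inhibitory neurons, including the projection neurons of the striatum. In Sham it was 367, 342, 319, 327 and 365 CPM, and in PBS at 1 wpi 284, 261, 253, 277 and 294 CPM. Every PBS mouse was below every Sham mouse, a pattern that 1.79% of all genes showed in that direction. The log2 fold change was -0.37 (SE 0.099, adjusted p = 0.0112), a level 22.4% lower. In IL-4 MSCs at 1 wpi Gad1 was 243, 276, 323, 328 and 285 CPM, which overlapped Sham. With the TMM factor the groups did not overlap, at up to 8.31 log2 CPM against at least 8.36 in Sham (share of all genes not computed). Gad1 fell by 0.31 on the log2 scale (SE 0.099, adjusted p = 0.0128). That call was lost without Sham mouse 1 (-0.25, adjusted p = 0.0661) or IL-4 MSC mouse 1 (-0.24, adjusted p = 0.0731). In MSCs the difference was -0.25 (SE 0.099) and was not called (adjusted p = 0.0746).

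Pvalb (chr15:78191114-78206400) encodes parvalbumin, the calcium buffer of fast-spiking basket and chandelier cells. It was 36.1, 31.8, 30.02, 30.2 and 33.5 CPM in Sham against 25.2, 18.7, 17.2, 24.7 and 29.6 CPM in PBS at 1 wpi. The groups did not overlap, and Pvalb fell by 0.52 on the log2 scale (SE 0.14, adjusted p = 0.00939). In IL-4 MSCs 4 of the 5 mice were between 31.2 and 33.3 CPM and mouse 1 was at 25.0 CPM. That group differed from Sham by -0.13 (SE 0.14, adjusted p = 0.492), with a 95% interval from -0.41 to 0.15. Compared directly, IL-4 MSCs and PBS differed in Pvalb by 0.39 (SE 0.14), just short of the threshold (adjusted p = 0.0505), so a difference between the treatments was not established.

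Sst (chr16:23889573-23890958) encodes somatostatin, which marks dendrite-targeting interneurons and inhibits its targets through Gi-coupled receptors. In Sham it was 95.8, 101, 102, 105 and 102 CPM. In IL-4 MSCs at 1 wpi it was 77.9, 85.5, 82.2, 87.0 and 86.5 CPM, all below Sham, as were 5.16% of all genes. Sst fell by 0.34 (SE 0.075, adjusted p = 0.000486), or 21.1%. It fell by 0.24 in PBS (SE 0.075, adjusted p = 0.0256), a call lost in 4 of 10 fits that left out 1 library. There mouse 3 was lowest at 69.3 CPM, and mice 4 and 5, at 97.3 and 96.4 CPM, reached into the Sham range. With the TMM factor they did not, at 6.60 and 6.58 log2 CPM against at least 6.63 in Sham (share of all genes not computed). In MSCs all 5 mice, at 86.2 to 93.5 CPM, were below Sham, which 2.03% of all genes showed, but the difference of -0.21 (SE 0.075) was not called (adjusted p = 0.0533).

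Cort (chr4:149125034-149126763) encodes cortistatin, a relative of somatostatin that binds the same receptors and is made by a subset of cortical interneurons. It was 1.56, 1.17, 2.34, 2.24 and 1.495 CPM in Sham and 1.04, 1.07, 0.698, 0.962 and 0.919 CPM in IL-4 MSCs at 1 wpi. No IL-4 MSC mouse reached the lowest Sham mouse, and Cort fell by 0.99 (SE 0.23, adjusted p = 0.000898), the largest change among the 10 genes against Sham. In PBS the difference was -0.66 (SE 0.23, adjusted p = 0.0488), called in 4 of 10 fits that left out 1 library, and in MSCs -0.47 (SE 0.22, adjusted p = 0.153). The 2 high Sham values are those of the mice collected at 1 week. Against the 3-week Sham mice alone the fall in IL-4 MSCs was 0.65 (adjusted p = 0.0466), and the fall in PBS, 0.32, was not called (adjusted p = 0.466).

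Reln (chr5:21884454-22344702) encodes reelin, the secreted matrix protein that positions neurons in development and is made by interneurons in the adult cortex. It was 118, 105, 138, 156 and 125 CPM in Sham and 105, 89.6, 97.5, 104 and 92.7 CPM in IL-4 MSCs at 1 wpi. The groups touched only at 105 CPM. With the TMM factor they did not overlap, at up to 6.68 log2 CPM against at least 6.72 in Sham (share of all genes not computed). Reln fell by 0.47 (SE 0.088, adjusted p = 7.25e-05), or 27.8%. In MSCs it was 105, 105, 111, 105 and 117 CPM and fell by 0.29 (SE 0.088, adjusted p = 0.0179). That call was lost without either 1-week Sham mouse, the 2 highest of the Sham group, and against the 3-week Sham mice alone (-0.14, adjusted p = 0.345). In PBS the difference of -0.23 (SE 0.088) was not called (adjusted p = 0.0821). Reln shares 246 exonic bases with Gm10475 on the other strand, so reads of the pair may be mixed if strand was not used.

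Npy (chr6:49822710-49829507) encodes neuropeptide Y, which is co-released by many somatostatin and neurogliaform cells and damps excitation. It was 28.3, 28.9 and 29.7 CPM in the 3-week Sham mice and 21.9 and 23.0 CPM in the 1-week Sham mice. In PBS at 1 wpi it was 20.2, 19.2, 14.8, 23.9 and 24.9 CPM and fell by 0.39 (SE 0.12, adjusted p = 0.0299), a call lost in 6 of 10 fits that left out 1 library. The call was also lost against the same-week Sham mice alone, which were both below PBS mice 4 and 5. In MSCs (24.2 to 28.4 CPM) and IL-4 MSCs (24.4 to 30.9 CPM) it stayed within or near the Sham range, with differences of -0.065 and -0.030 (SE 0.12 each; adjusted p = 0.784 and 0.883). IL-4 MSCs exceeded PBS by 0.36 (SE 0.12, adjusted p = 0.0394), where 11.1% of all genes were called higher, and the fitted difference of MSCs from PBS, 0.32 (SE 0.12), was not called (adjusted p = 0.961). The call for IL-4 MSCs against PBS was lost in 6 of 10 fits that left out 1 library. In that comparison the median log2 fold change of 13 striatal genes was 0.92, none of them called by edgeR and 6 with an unadjusted p below 0.05. With the striatal score, their mean log2 CPM, as a covariate, Npy differed by 0.21 and was not called (adjusted p = 0.178). That score was 4.80 to 5.75 in IL-4 MSCs and 4.23 to 4.74 in PBS, so such a fit cannot tell it from the treatment.

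Crh (chr3:19693401-19695396) encodes corticotropin-releasing hormone, a stress peptide that some interneurons also make. It was 2.96, 3.14, 2.79, 2.48 and 3.66 CPM in Sham and 2.28, 1.52, 1.79, 2.50 and 2.18 CPM in PBS at 1 wpi, with only 1 PBS mouse reaching the lowest Sham mouse. With the TMM factor no PBS mouse did, at up to 1.345 log2 CPM against at least 1.375 in Sham (share of all genes not computed). Crh fell by 0.58 (SE 0.19, adjusted p = 0.0334), and the call was lost in 5 of 10 fits that left out 1 library. Vip (chr10:5639218-5647617), the peptide of interneurons that inhibit other interneurons, was 18.6 to 20.7 CPM in Sham and 13.2 to 17.5 CPM in IL-4 MSCs at 1 wpi, without overlap. It fell by 0.36 (SE 0.13, adjusted p = 0.0286), a call lost in 6 of 10 fits that left out 1 library. Cck (chr9:121489824-121495694), the peptide of regular-spiking basket cells that is also made by pyramidal neurons, was 162 to 176 CPM in Sham and 136 to 154 CPM in IL-4 MSCs, again without overlap. It fell by 0.28 (SE 0.089, adjusted p = 0.0128), a call lost in 3 of 10 such fits. Neither Vip (-0.25, SE 0.13) nor Cck (-0.23, SE 0.089) was called in PBS (adjusted p = 0.218 and 0.0937).

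**Figure D3:**
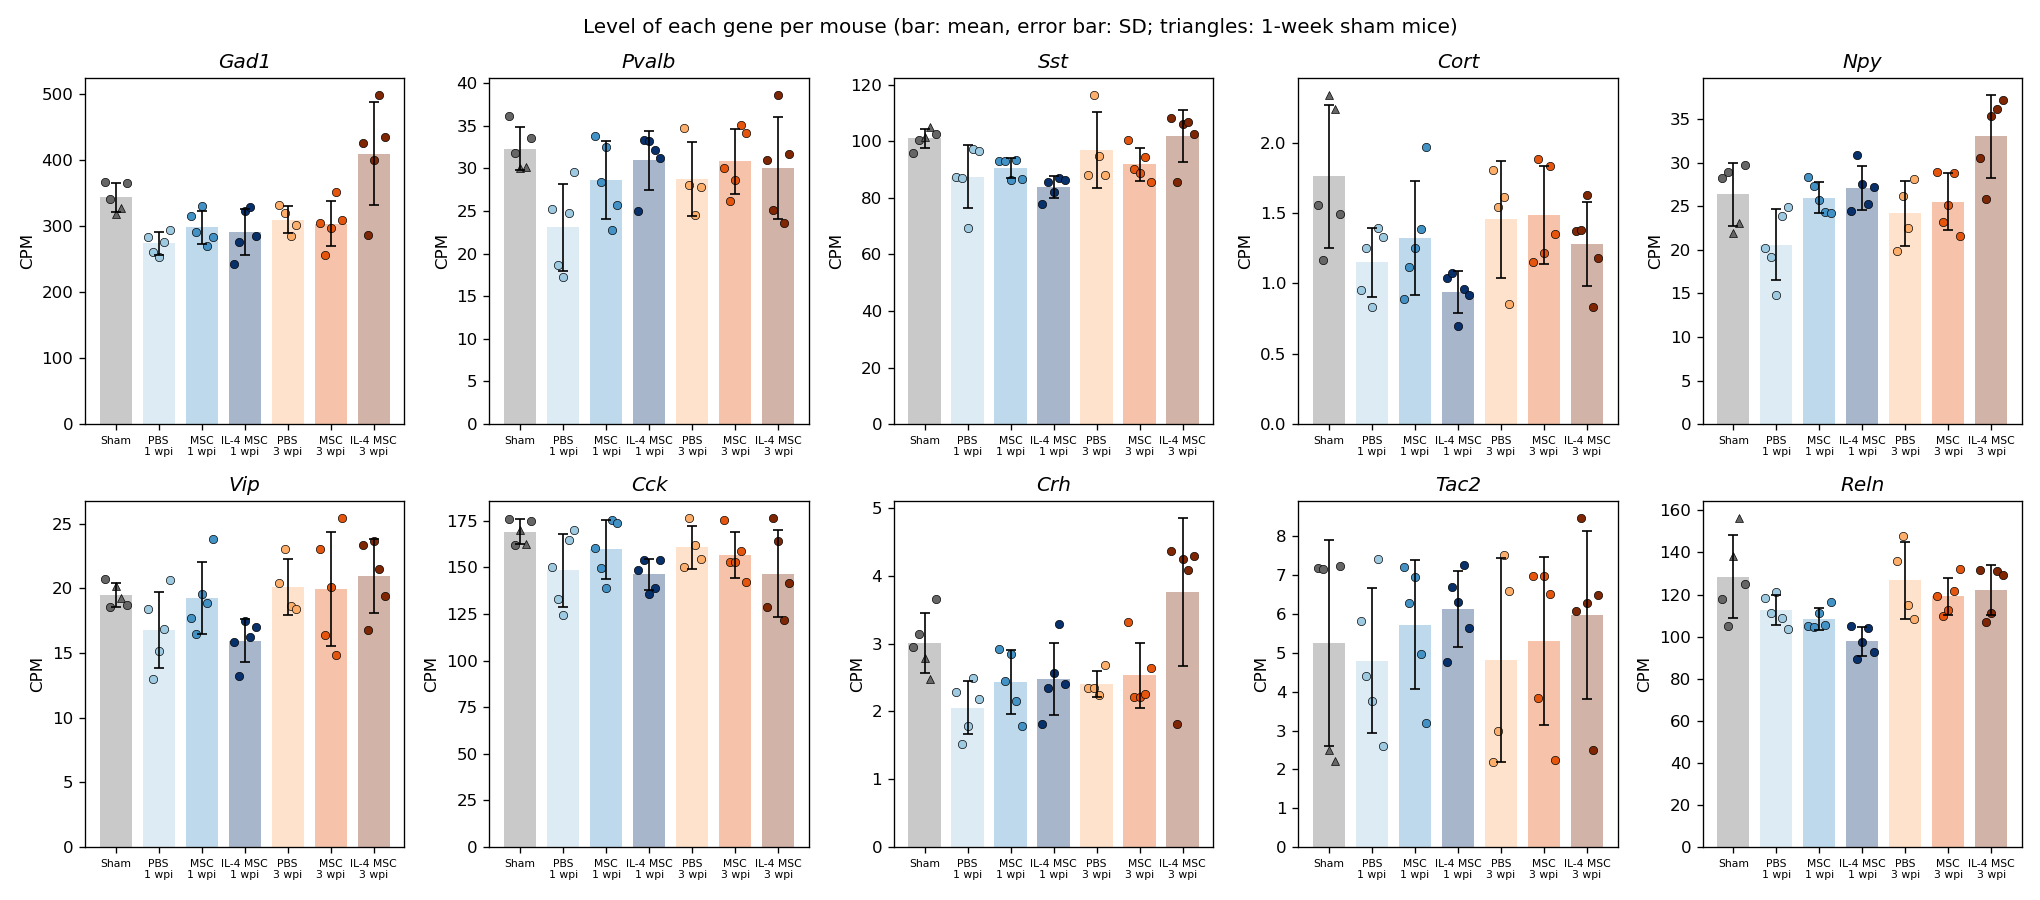
CPM of each gene in each mouse, by group, with the group mean as a bar and the SD as an error bar; triangles mark the 1-week Sham mice. Sst, Vip, Cck and Cort of IL-4 MSCs at 1 wpi lie wholly below Sham, Gad1 and Pvalb of PBS at 1 wpi do so as well, and Tac2 splits into high and low mice in most groups.

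The Sham group itself was not uniform. None of the 10 genes was called between the 3-week and the 1-week Sham mice (3 against 2) by edgeR, with 4 at an unadjusted p below 0.05 (Npy, Tac2, Cort and Reln), where 0.0876% of all genes were called. The fitted differences were nonetheless large for Tac2, 1.60 (SE 0.51, adjusted p = 0.139), for Cort, -0.71 (SE 0.29, adjusted p = 0.224), and for Reln, -0.36 (SE 0.11, adjusted p = 0.12). With only the 2 same-week Sham mice as reference, 2 genes were called in PBS at 1 wpi (Cort and Reln), 2 in MSCs (Cort and Reln) and 4 in IL-4 MSCs (Sst, Cort and Reln lower, Tac2 higher). Sst, Cort and Reln in IL-4 MSCs were called against Sham in all 9 alternative fits and in all 10 fits that left out 1 library. Pvalb and Gad1 in PBS were called in all 10 such fits and in 8 of the 9 alternatives, the exception being the same-week Sham mice (adjusted p = 0.133 and 0.172).

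Several other gene groups moved in the same libraries. Against Sham at 1 wpi, 4.99% of all genes were called lower in PBS, 6.86% with MSCs and 18.4% with IL-4 MSCs. Of 15 pan-neuronal genes, 7 were called lower at 1 wpi in PBS, 8 with MSCs and 12 with IL-4 MSCs, with median log2 fold changes of -0.13, -0.13 and -0.23, among them Snap25 at -0.31 and Map2 at -0.28 in IL-4 MSCs. Of 14 markers of cortical pyramidal neurons tested, 3, 2 and 8 were lower. All 12 myeloid markers were higher in each of the 3 groups. Their summed level was 199 to 299 CPM in Sham, 405 to 538 in PBS, 450 to 587 with MSCs and 612 to 808 in IL-4 MSCs. Astrocyte genes were higher for 7, 7 and 8 of 10, with 1 lower in IL-4 MSCs. Of 15 activity-regulated genes, 14, 13 and 12 were lower, with medians of -0.71, -0.78 and -0.80, among them Egr4 (-0.96) and Fosb (-0.95) in IL-4 MSCs. The part of any of these in the lower interneuron genes was not tested. None of the 13 striatal genes was called by edgeR against Sham at 1 wpi, with 2, 0 and 0 at an unadjusted p below 0.05 and medians of -0.70, -0.045 and 0.18. Their score was 4.23 to 4.74 in PBS at 1 wpi, 3.88 to 3.89 in the 1-week Sham mice and 5.52 to 5.81 in the 3-week ones. With it as a covariate, Gad1 (-0.29, adjusted p = 0.00506), Npy (-0.30, adjusted p = 0.0306) and Crh (-0.44, adjusted p = 0.0325) were called lower in PBS, as was Gad1 in IL-4 MSCs (-0.38, adjusted p = 8.25e-05). The score of the PBS mice overlapped neither that of the 1-week nor that of the 3-week Sham mice. Such a fit cannot tell the score from the group or the Sham week.

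Of 41 other interneuron genes, 1 was higher and 5 were lower at 1 wpi in PBS, 2 and 7 with MSCs, and 2 and 12 with IL-4 MSCs. The share of all genes called lower was 4.99%, 6.86% and 18.4%. The median log2 fold changes were -0.16, -0.12 and -0.20. The genes with the smallest adjusted p in IL-4 MSCs included Erbb4, the neuregulin receptor of interneurons, at -0.32 (SE 0.051, adjusted p = 5.24e-06), and Kcnc1, a potassium channel of fast-spiking cells, at -0.21 (SE 0.037, adjusted p = 2.09e-05). Maf, an interneuron transcription factor that macrophages and microglia also express, rose by 0.88.

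The receptors of these peptides and of reelin were lower in part. Of 21 tested, 3 were called lower in PBS, 3 with MSCs and 6 with IL-4 MSCs, and none higher. The share of all genes called lower was 4.99%, 6.86% and 18.4% in these comparisons. In IL-4 MSCs Cckbr, the main brain receptor of cholecystokinin, fell by 0.55 (SE 0.072, adjusted p = 1.79e-07), Npy1r by 0.34 (SE 0.070, adjusted p = 0.000203), Sstr3 by 0.36 (SE 0.078, adjusted p = 0.000368) and Dab1, the adaptor that carries the reelin signal, by 0.41 (SE 0.083, adjusted p = 0.000208). Of 15 genes of peptide processing and dense-core vesicles, 5 were lower in PBS, 6 with MSCs and 8 with IL-4 MSCs, and 1 was higher in each. Pcsk1, a convertase that cuts prohormones, fell by 0.67 (SE 0.061, adjusted p = 1.23e-10), Vgf by 0.45 and Pam, which amidates peptides, by 0.28 in IL-4 MSCs. The gene that rose in IL-4 MSCs was Ctsl (1.54), a lysosomal protease that macrophages make in quantity.

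At 3 wpi none of the 10 was called against Sham in PBS, MSCs or IL-4 MSCs by edgeR or DESeq2, and 0, 0 and 4 had an unadjusted p below 0.05. The 4 in IL-4 MSCs were Npy (0.32), Gad1 (0.24), Cck (-0.22) and Cort (-0.49). Without IL-4 MSC mouse 2, 4 genes were called there, Npy (0.39, adjusted p = 0.0349), Crh (0.49, adjusted p = 0.0376) and Gad1 (0.34, adjusted p = 0.00684) higher and Cck lower (-0.30, adjusted p = 0.0254). Mouse 2 was the lowest of its group in Npy, Crh and Gad1 and the highest in Cck, so leaving it out had to move them in these directions. Without mouse 4 instead, none of the 10 was called. With all libraries in the fit, 0.0175%, 1.16% and 4.02% of all genes were called in PBS, MSCs and IL-4 MSCs. The share without mouse 2 was not computed. The medians of the 10 log2 fold changes were -0.13, -0.13 and 0.046. For Sst the 95% interval ran from -0.24 to 0.084 in PBS, from -0.31 to 0.0012 in MSCs and from -0.15 to 0.15 in IL-4 MSCs. The fall of IL-4 MSCs at 1 wpi, 0.34, lay outside the interval of that treatment. The fall of PBS at 1 wpi, 0.24, lay at the edge of its own, and that of MSCs, 0.21, within its own. For Cort it ran from -0.77 to 0.18 in PBS and from -0.94 to -0.031 in IL-4 MSCs.

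Within the IL-4 MSC treatment, 6 of 10 genes were higher at 3 wpi than at 1 wpi (Sst, Npy, Vip, Crh, Reln and Gad1) and none was lower, where 16.3% of all genes were called higher. The median log2 fold change of the 10 was 0.37, against 0.025 over all genes. Reln rose from 89.6 to 105 CPM at 1 wpi to 131, 107, 111, 131 and 129 CPM at 3 wpi, so every later mouse was above every earlier one, as in 2.91% of all genes in that direction. Its log2 fold change was 0.38 (SE 0.088, adjusted p = 0.000981). Sst rose by 0.34 (SE 0.075, adjusted p = 0.000578), to 108, 85.6, 106, 107 and 103 CPM, where mouse 2 alone remained in the range of 1 wpi. With the TMM factor mouse 2 lay just above that range, at 6.43 log2 CPM against at most 6.40 at 1 wpi (share of all genes not computed). Vip rose by 0.45 (SE 0.13, adjusted p = 0.00699) and Crh by 0.66 (SE 0.18, adjusted p = 0.00501). Sst, Reln and Gad1 were called in all 7 alternatives and all 10 fits that left out 1 library.

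PBS and MSC mice showed no called change between the weeks in any of the 10 genes by edgeR or DESeq2. In PBS all 10 log2 fold changes were positive with a median of 0.22, and 4 had an unadjusted p below 0.05. In MSCs the median was 0.071 and none had. Of all genes, 5.46% and 6.08% were called. Over the same interval in IL-4 MSCs, where 16.3% of all genes were called higher and 16.5% lower, other lists moved too. The striatal genes were higher for 11 of 13, with a median log2 fold change of 1.28. Of 41 other interneuron genes 15 rose and 2 fell, of 15 processing genes 10 rose and 1 fell, and of 21 receptors 4 rose, a share near that of all genes. Pan-neuronal genes rose for 8 of 15 and markers of cortical pyramidal neurons for 5 of 14. Myeloid markers fell for 11 of 12 and astrocyte genes for 6 of 10, with 1 astrocyte gene higher. With the striatal score as a covariate, Gad1 was still called between the weeks (0.37, adjusted p = 0.000513), while Npy (0.14, adjusted p = 0.323) and Crh (0.30, adjusted p = 0.143) were not. As most striatal genes themselves rose between the weeks, this fit cannot tell the score from the week.

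IL-4 MSCs at 3 wpi differed from the other injured groups in Gad1 and Npy. Gad1 was 427, 286, 400, 499 and 436 CPM with IL-4 MSCs, 331, 321, 285 and 302 CPM with PBS, and 304, 256, 297, 351 and 309 CPM in MSCs. In IL-4 MSCs 4 of 5 mice were above all mice of both other groups and mouse 2 lay among them. The log2 fold change was 0.41 against PBS (SE 0.10, adjusted p = 0.0284) and 0.44 against MSCs (SE 0.099, adjusted p = 0.013). Npy was 30.5, 25.8, 35.4, 36.2 and 37.2 CPM after IL-4 MSC injection, against 19.9, 26.2, 22.5 and 28.1 CPM with PBS, a difference of 0.46 (SE 0.13, adjusted p = 0.0452). Against MSCs Npy differed by 0.38 (SE 0.12) and was not called (adjusted p = 0.0779). Both calls against PBS were fragile: leaving out 1 library ended that for Gad1 in 8 of 9 fits and that for Npy in 6 of 9, and the call for Gad1 against MSCs ended in 3 of 10, without MSC mouse 2 or IL-4 MSC mice 4 or 5. Without IL-4 MSC mouse 4, Gad1 differed by 0.33 from PBS (adjusted p = 0.131) and by 0.35 from MSCs (adjusted p = 0.0848). These calls compare with 2.13% of all genes called higher against PBS and 2.22% against MSCs. Crh was 4.37, 1.82, 4.25, 4.08 and 4.29 CPM in IL-4 MSCs, against 2.24 to 2.69 CPM in PBS, and just missed the threshold (0.66, SE 0.20, adjusted p = 0.0617). Without IL-4 MSC mouse 2, Crh was called against PBS (0.82, adjusted p = 0.00117) and MSCs (0.74, adjusted p = 0.00151). That mouse was the lowest of its group in Crh, so leaving it out had to raise the difference. Without mouse 4, Crh was not called against PBS (0.62, adjusted p = 0.162) or MSCs (0.55, adjusted p = 0.202).

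**Figure D4:**
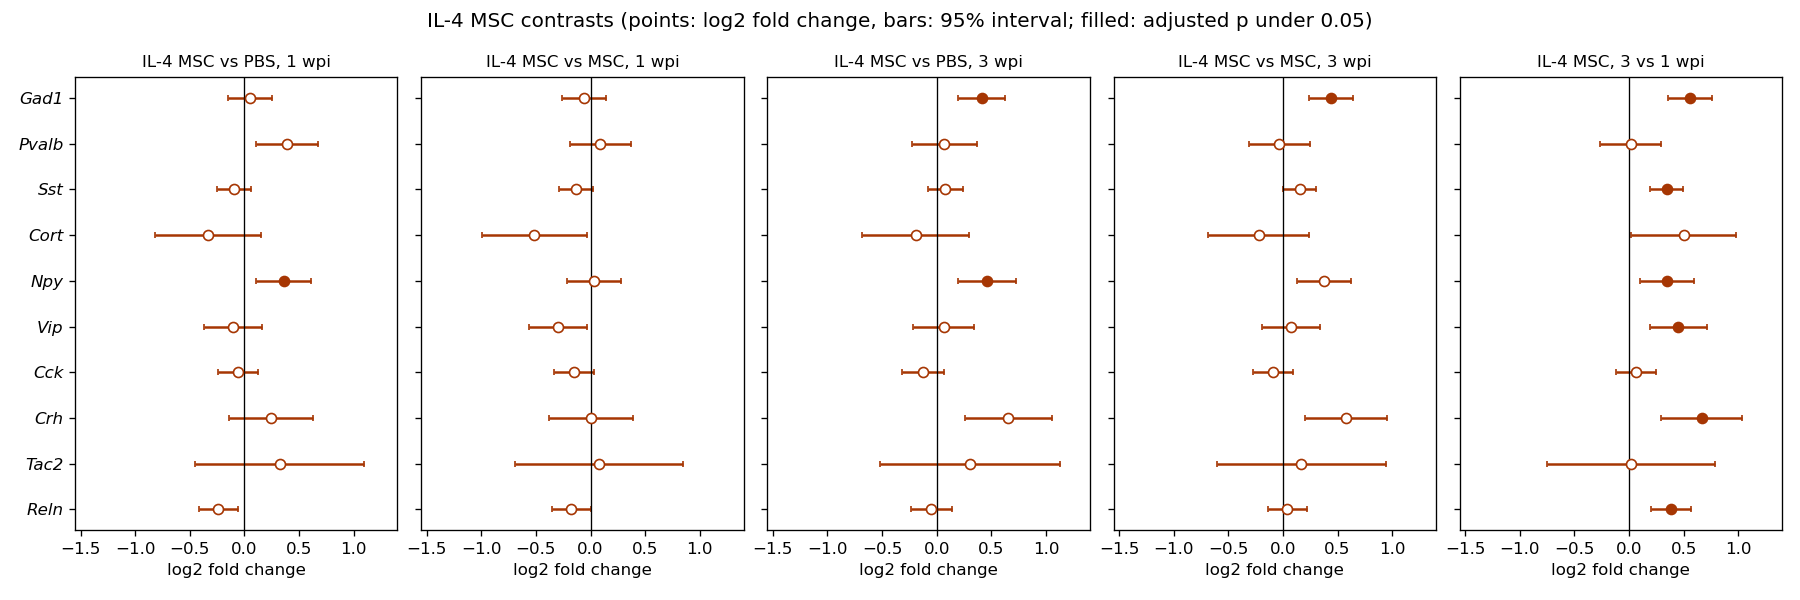
Log2 fold change of each gene for IL-4 MSCs against PBS or MSCs at each week, and between the weeks in IL-4 MSCs, with 95% intervals; filled points have an adjusted p below 0.05. Npy is filled in IL-4 MSCs against PBS at both weeks, Gad1 in both comparisons at 3 wpi, and 6 genes between the weeks.

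The higher Gad1 at 3 wpi moved with markers of striatum, and against those of hippocampus and thalamus. Of 13 striatal genes, 12 were called higher at 3 wpi in the IL-4 MSC group when set against PBS, 11 against MSCs and 9 against Sham, with a median log2 fold change of 2.10, 1.79 and 1.53. Pde10a differed by 2.05 (SE 0.40, adjusted p = 0.00762) and Rasd2 by 1.51 (SE 0.32, adjusted p = 0.00999) against PBS. The mean log2 CPM of the 13 genes was 6.61, 4.63, 6.57, 7.39 and 6.87 in the IL-4 MSC mice, between 4.00 and 5.16 in PBS and between 4.01 and 5.58 in MSCs. Mouse 2, the lowest in Gad1, Npy and Crh among the IL-4 MSC mice at 3 wpi, was also lowest in the striatal genes, and mouse 4, the highest in Gad1, was highest in them. With this score as a covariate, none of the 10 genes was called for IL-4 MSCs against PBS or MSCs at 3 wpi by edgeR (Gad1 0.089 against PBS, adjusted p = 0.966, and 0.16 against MSCs, adjusted p = 0.621), and none had an unadjusted p below 0.05. As the score itself was higher in most of the IL-4 MSC mice, such a fit cannot tell it from the treatment. Over 34 libraries, which share their RNA composition and include the groups compared, the score correlated with Gad1 at r = 0.72, Npy at r = 0.77 and Crh at r = 0.75, and within groups at 0.71, 0.65 and 0.71. The hippocampal score ran opposite, at -0.70, -0.69 and -0.68, and within groups at -0.72, -0.51 and -0.62. For Gad1 the thalamic and habenular score was also opposite, at -0.62 and -0.51. With the latter as a covariate, Gad1 was not called either (0.30 against PBS, adjusted p = 0.0906, and 0.28 against MSCs, adjusted p = 0.124). The thalamic and habenular score was itself lower on average in IL-4 MSCs at 3 wpi, so this fit cannot tell it from the treatment either. Of the other interneuron genes, 5 were higher against PBS, namely Lhx6 (0.54), Slc32a1 (0.63), Dlx5 (1.12) and Tac1 (1.54), and Penk (1.94), which was added after its value was seen. Tac1 and Penk are on the striatal list too. The part of regional RNA in the differences of Gad1, Npy and Crh was not tested.

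Among the lists of 3 further regions, medians were below 0 in the same comparisons. Of 14 hippocampal genes, none was called by edgeR at 3 wpi for IL-4 MSCs against PBS, MSCs or Sham, but 9, 10 and 10 had an unadjusted p below 0.05, and their median log2 fold changes were -0.63, -0.67 and -0.70. Of 13 genes of thalamus and habenula, none was called in the same comparisons, with 1, 5 and 2 below 0.05 and medians of -0.42, -0.62 and -0.53. Of 14 genes of hypothalamus and amygdala, again none was called, with 3, 3 and 2 below 0.05 and medians of -0.31, -0.17 and -0.63. Markers of cortical pyramidal neurons had medians of 0.11, 0.12 and 0.078, with 1 of 14 called lower in each, against PBS Tshz2 (-0.46, adjusted p = 0.039). In the other 12 comparisons the hippocampal, thalamic and hypothalamic lists gave 1 called gene, Tdo2, which is made in the dentate gyrus and fell by 0.74 (SE 0.29, adjusted p = 0.0457) in IL-4 MSCs against Sham at 1 wpi.

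**Figure D5:**
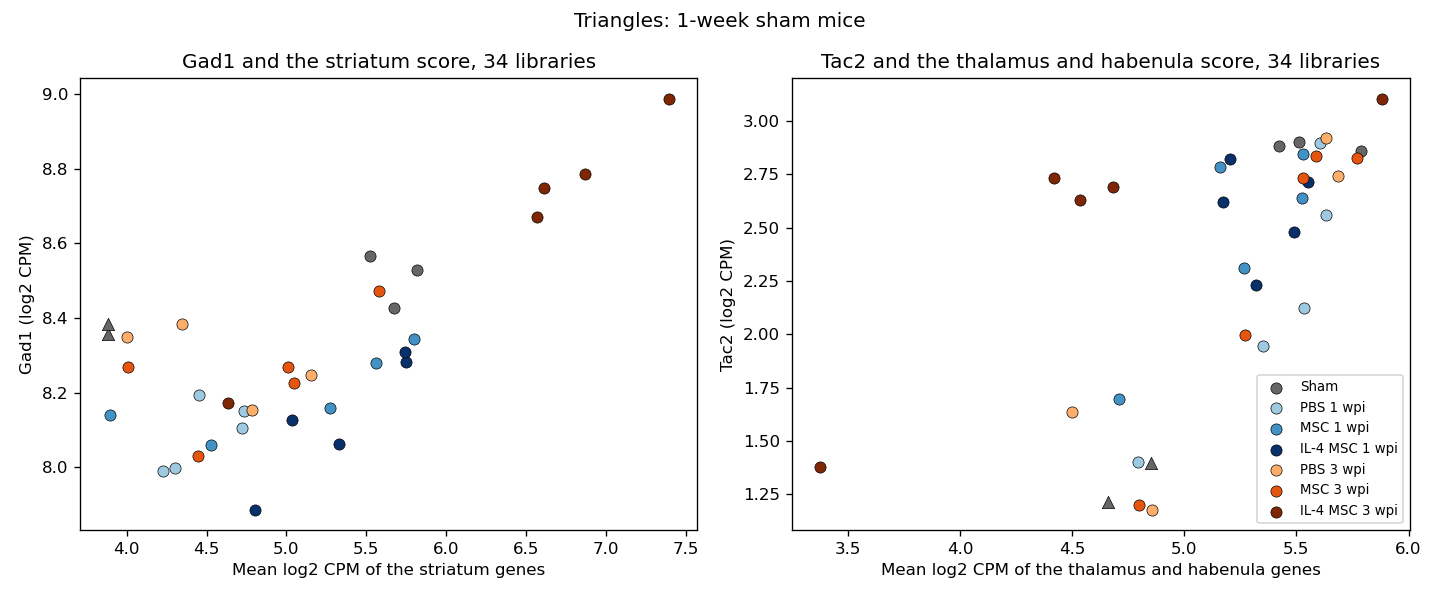
Left, Gad1 (log2 CPM) against the mean log2 CPM of 13 striatal genes; right, Tac2 against that of 13 thalamic and habenular genes, one point per library. Gad1 rises with the striatal score to its highest in 4 IL-4 MSC mice at 3 wpi (6.57 to 7.39), and Tac2 is low in most libraries with a low thalamic score, 3 IL-4 MSC mice at 3 wpi excepted.

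Of the 10 genes, only Gad1 had a treatment contrast called between the weeks, in 1 of 3 contrasts and at a share near that of all genes. For IL-4 MSCs against MSCs its log2 fold change was -0.059 at 1 wpi and 0.44 at 3 wpi. The difference of these, 0.50 (SE 0.14), was called (adjusted p = 0.0243) where 7.7% of all genes were. The call was lost in 7 of 20 fits that left out 1 library. Nor was the difference called with the striatal score (0.28, adjusted p = 0.135) or the thalamic and habenular score (0.325, adjusted p = 0.182) as a covariate. The striatal score itself was higher in most IL-4 MSC mice at 3 wpi, and the thalamic and habenular score lower on average. Neither fit can tell its score from the treatment. For the same contrast against PBS the difference between weeks was 0.36 (SE 0.14, adjusted p = 0.17), with 4.65% of all genes called. For MSCs against PBS it was -0.14 (SE 0.14, adjusted p above 0.99), with 0% of all genes called. No other gene of the 10 was called in any of these 3 contrasts by edgeR.

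Tac2 (chr10:127724478-127731768), the gene of neurokinin B, was the most variable of the 10, with a biological coefficient of variation of 0.41 that exceeded that of 96.9% of genes. It was 7.18, 7.16 and 7.23 CPM in the 3-week Sham mice and 2.51 and 2.21 CPM in the 1-week Sham mice. PBS at 3 wpi held 2.19, 2.99, 7.53 and 6.59 CPM, and MSCs at 3 wpi 6.99, 3.84, 6.99, 6.51 and 2.24 CPM. Sham and the groups at 3 wpi thus held mice at high and at low levels, and no comparison of groups was called, the SE being 0.37 to 0.41. Tac2 is known to be abundant in the medial habenula and parts of the hypothalamus and amygdala as well as in some cortical interneurons. Its correlation with the thalamic and habenular score was 0.64 over 34 libraries and 0.83 within groups, and with the hypothalamic and amygdalar score 0.75 and 0.81. In the Sham mice the thalamic and habenular score was 4.66 to 4.85 at 1 week and 5.42 to 5.79 at 3 weeks. With this score as a covariate, Tac2 was higher in IL-4 MSCs at 3 wpi than in Sham (0.95, SE 0.25, adjusted p = 0.0226), PBS (1.01, SE 0.26, adjusted p = 0.0334) and MSCs (1.06, SE 0.25, adjusted p = 0.037), a setting chosen after the data had been seen. Without it the differences were 0.18, 0.31 and 0.17, none of them called. The score itself was lower on average in IL-4 MSCs at 3 wpi (mean 4.58, range 3.37 to 5.88) than in Sham (5.25), PBS (5.17) and MSCs (5.39). Such a fit cannot tell the score from the group.

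The other treatment contrasts held little. MSCs and PBS did not differ in a called gene of the 10 at 1 wpi or 3 wpi by edgeR or DESeq2, with 2 and 0 at an unadjusted p below 0.05 and 0.0992% and 0.0759% of all genes called. At 1 wpi IL-4 MSCs differed from MSCs in none by either tool, with 2 below 0.05 (Vip and Cort) and 8.66% of all genes called. The intervals of these contrasts were wide for scarce genes, from -0.99 to -0.034 for Cort in the last of these, and narrow for Sst, from -0.29 to 0.019.

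Some of the 10 genes varied together across mice. Over 34 libraries Crh and Gad1 correlated at r = 0.86, Npy and Crh at 0.73, Npy and Gad1 at 0.70 and Sst and Gad1 at 0.69. Tac2 and Reln ran opposite, at -0.52. Sst followed the peptide-processing genes at 0.78 and the myeloid genes at -0.72 over all libraries, and at 0.57 and -0.35 within groups. Of all genes tested, among those most like each in log2 CPM over the 34 libraries were Gnb5 (0.95), Slc32a1 (0.94) and Itpr1 (0.93) for Gad1, Bmyc (0.91) and Tmem222 (0.89) for Sst, and Them6 (0.89), Syndig1 (0.88) and Ppp1ca (0.87) for Npy. For Pvalb they were Colq (0.82), Rgs6 (0.79) and Lgi2 (0.77), for Vip Epdr1 (0.80) and Rtn1 (0.80), and for Cck Nrn1 (0.84), Pitpna (0.82) and Ywhah (0.78). For Crh they were Hs3st2 (0.88), Stard10 (0.88) and Them6 (0.88), for Tac2 Frem3 (0.91), Snx31 (0.89) and Prkcq (0.87), for Cort Atp1b1 (0.82), Cdip1 (0.79) and Ckmt1 (0.79), and for Reln Spin1 (0.87) and Dip2c (0.87). Slc32a1, the vesicular GABA transporter, was the only gene of the interneuron list among those named.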

How the data were processed

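Bulk RNA-seq of 34 mouse libraries, 1 per mouse, was analysed from 1 table of all samples. According to their methods and the submitters' processing notes, the authors trimmed reads with cutadapt 2.4, checked them with FastQC 0.11.8, pseudo-aligned them with kallisto 0.46 to protein-coding GENCODE transcripts and tested expression with sleuth 0.30 in R 3.6.1. The deposited table holds estimated counts per gene, which were rounded to whole numbers here, and TPM, which the authors' pipeline scaled by transcript length and library. Its columns of the authors' own p-values, q-values and fold changes were not used.

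The estimated counts were filtered with filterByExpr, scaled by TMM and fitted over all 7 groups with edgeR 4.0.16 (robust quasi-likelihood test, 27 residual degrees of freedom, R 4.3.3, limma 3.58.1), with Benjamini-Hochberg adjustment over 17131 genes and a threshold of 0.05. Fold changes, SEs and 95% intervals come from this fit, which was tested on simulated data. Scores are mean log2 CPM over a list, and log2 CPM was computed with the TMM factors and a prior count of 2. Python 3.11.15, pandas 2.3.3 and matplotlib 3.10.9 were used for sequences and figures. Library totals were 29838423 to 41554322, so that 3 counts equal 0.0722 to 0.101 CPM, which covers counting error only. The alternatives were DESeq2 1.42.0, upper-quartile scaling, no filter, only the groups compared, a block for the replicate number, a striatal or thalamic score as covariate, other Sham mice, an exact permutation test and leaving out each library. The fit pools the Sham mice of both weeks.

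All 10 genes are described. From the other lists (interneuron genes, receptors, peptide processing, neurons, pyramidal neurons, striatum, hippocampus, thalamus and habenula, hypothalamus and amygdala, myeloid cells, astrocytes, activity genes), those named are the 4 called genes with the smallest adjusted p in IL-4 MSCs against Sham at 1 wpi or against PBS at 3 wpi. For each of the 10, genes were named from the 3 with the highest Pearson r. Some genes that these rules select are not reported here. Promoters are from RefSeq (GRCm38.p6). The genes and lists were chosen with earlier results of these data known. No 31-base word of the transcripts of the 10 genes occurred in another protein-coding gene of GENCODE vM21 (GRCm38), the source of gene positions.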

Additional observations from a re-analysis of the deposited data

Results flagged for a closer look

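In 3 cases the value of a single mouse lay apart from the rest of their group by Dixon's test, in the 70 combinations of gene and group examined, where chance gives about 1 in 20. In IL-4 MSCs at 3 wpi, mouse 2 was lowest in Sst, at 85.6 CPM with the next at 103 and the highest at 108 CPM, and lowest in Crh, at 1.82 CPM with the next at 4.08 and the highest at 4.37 CPM. The same mouse was lowest of its group in Gad1 (286 CPM), Npy (25.8 CPM), Vip (16.8 CPM) and the striatal score (4.63), and highest in Tac2 (8.48 CPM), Cck (177 CPM) and the thalamic and habenular score (5.88). In IL-4 MSCs at 1 wpi, mouse 1 was lowest in Pvalb, at 25.0 CPM with the next at 31.2 and the highest at 33.3 CPM.

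For Gad1, the contrast of IL-4 MSCs with MSCs was called between the weeks, at 0.50 on the log2 scale (SE 0.14, edgeR adjusted p = 0.0243), where 7.7% of all genes were called. With 1 library left out at a time it was 0.41 to 0.57, and the call was lost for 7 of 20 libraries (MSC mice 2 and 5 at 3 wpi, IL-4 MSC mice 1 and 2 at 1 wpi, and IL-4 MSC mice 1, 4 and 5 at 3 wpi), with adjusted p from 0.000813 to 0.0692. As a covariate, the striatal score gave 0.28 (adjusted p = 0.135) and the thalamic and habenular score 0.325 (adjusted p = 0.182).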

How the results depend on the processing

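No called difference of the 10 genes changed sign under any alternative. Of 23 called differences, 6 were called under every alternative and with each library left out: Sst, Cort and Reln in IL-4 MSCs against Sham at 1 wpi, and Sst, Reln and Gad1 between the weeks in IL-4 MSCs. The number of the 10 genes called moved by over 1.5 times as follows; the cause was not tested. For PBS against Sham at 1 wpi (6) it was 3 with only both groups in the fit and 2 with same-week Sham mice. For MSCs against Sham at 1 wpi (1) it was 2 with DESeq2, with only both groups and with same-week Sham mice, 3 with either regional score as covariate and 0 with 3-week Sham mice only. For IL-4 MSCs against PBS at 1 wpi (1) it was 2 with DESeq2, upper-quartile scaling, the block or the thalamic score, and 0 with the striatal score. For IL-4 MSCs against MSCs at 1 wpi (0) it was 2 with only both groups. At 3 wpi, IL-4 MSCs against PBS (2) gave 1 without the filter, with the block or with the thalamic score (then Tac2), and 0 with only both groups or the striatal score. IL-4 MSCs against MSCs (1) gave 3 with DESeq2 and 0 with only both groups or the striatal score. With the thalamic score IL-4 MSCs against Sham (0) gave 2 and MSCs between the weeks (0) gave 1.

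With each library left out, the counts ran from 2 to 7 for PBS against Sham at 1 wpi (lowest without PBS mouse 2 or 3), 0 to 2 for MSCs (0 without Sham mouse 3 or 4), 3 to 6 for IL-4 MSCs (3 without Sham mouse 1), 0 to 4 for IL-4 MSCs against Sham at 3 wpi (4 without IL-4 MSC mouse 2), 0 to 3 for IL-4 MSCs against PBS at 1 wpi, and 0 to 3 for IL-4 MSCs against PBS and against MSCs at 3 wpi (3 without IL-4 MSC mouse 2, 0 without mouse 4). They ran from 5 to 6 between the weeks in IL-4 MSCs and were 0 throughout for the other comparisons.

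The replicate numbers did not pair the mice: over 99 pairs with the same number the mean correlation of deviations was -0.0033, 24 pairs were over 0.1, and 6 of 34 libraries correlated best with their own number. With the block, Npy lost its call against PBS at 3 wpi (adjusted p = 0.0737), Cort lost that of PBS against Sham at 1 wpi (0.0653), Pvalb gained one against PBS at 1 wpi (0.0441), and no other call changed. By the unadjusted exact permutation test, Gad1 in IL-4 MSCs against PBS at 3 wpi had p = 0.0556, and the other 22 called differences were below 0.05. The thalamic score and the 3-week Sham reference were chosen after seeing the data. Cort and Crh rest on few counts, and the Sham group mixes weeks.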
